A study of Mus musculus with 12 samples.

Results

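MHC class II molecules display peptides from engulfed proteins to CD4+ T cells. An α and a β chain pair in the endoplasmic reticulum around the invariant chain Cd74, cathepsins trim that chain away in endosomes, H2-DM then exchanges the last invariant chain fragment for a peptide, and H2-O holds H2-DM back. In the brain these molecules are known from perivascular, meningeal and choroid plexus macrophages, from rare dendritic cells and, after activation, from part of the microglia. Most of the genes are switched on together by the coactivator Ciita, which binds factors held at short promoter boxes named X and Y.

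The 7 genes described here were the invariant chain gene Cd74, the chains of the peptide-presenting molecules H2-Aa, H2-Ab1 and H2-Eb1, both chains of H2-DM (H2-DMa and H2-DMb1) and Ciita, taken by symbol out of 20886 genes with a probe on the arrays. A total of 8 probes carried them, 2 of these for H2-Ab1, whose signals differed by 0.0125 to 0.2818 on the log2 scale on any array. The H2 genes among them lie within chr17:34119693-34316674 of the GRCm38.p6 build, and Ciita lies at chr16:10480014-10531064. H2-Ea, the gene of the α chain that pairs with H2-Eb1, is annotated there as a transcribed pseudogene. The term presenting chains names the genes H2-Aa, H2-Ab1 and H2-Eb1 here, and does not mean that H2-Eb1 forms a molecule in C57BL/6 mice.

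The 12 one-colour arrays came from 3 kinds of tissue in mice used as models of Alzheimer's disease, each array holding RNA pooled from 3 animals. The first kind was prefrontal cortex of C57BL/6 mice aged 1.5, 4, 17 and 22 months, with 1 array per age. The second was hippocampus of 3 transgenic models, labelled C57BL/6 (the methods name the substrain C57BL/6N as the background of the NCSTN and 5xFAD mice), which carried mutated human NCSTN (10 months), unmutated human MAPT (12 months) or the 5xFAD transgenes (6 months). The third was hippocampus of ICR mice, given as 7 weeks old at treatment. Amyloid-β peptide (Aβ) at 5 or 10 µM or streptozotocin at 2.5 or 3 mg/kg went into the cerebral ventricles 14 days before sampling. Scopolamine at 1 mg/kg went into the peritoneum 30 minutes before, so time since treatment and age at sampling differed between these agents. Arrays of control mice are not analysed here. The reference for an array was therefore the average log2 signal of the remaining arrays of its strain and region. With 1 array per model there was no spread between animals and no test. The error given after a value is the scanner's own spot error, 0.144 on the log2 scale for a bright spot.

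Strain, region and treatment changed together between the 3 kinds of tissue, and values are compared only within a kind. Transgene and age likewise cannot be told apart among the 3 transgenic arrays, and the promoters that drive the transgenes are not given in the sources used here. ICR mice are outbred, so a pool of 3 animals may hold several H2 haplotypes, while C57BL/6 mice carry 1. Class II chains differ in sequence between haplotypes, and how well each probe matches an ICR allele was not tested. The methods describe the transgenic mice as male, but on these 3 arrays the female transcript Xist had a log2 signal of 9.19 to 9.59 and the Y-linked gene Ddx3y was not well above background, the reverse of the other 9 arrays. The hippocampal granule cell gene Prox1 lay between 7.60 and 8.21 on the hippocampal arrays and between 4.82 and 5.59 in cortex, in the order that the labelled tissues give.

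The promoters of H2-Aa, H2-Eb1 and H2-DMb1 are shown because these genes behaved differently on the same arrays while sharing the Y box. Each line gives the 110 bases before the start of the transcript, 5′ to 3′ on the strand of the gene, from RefSeq on GRCm38.p6. The capitals ATTGG mark the Y box, and the capitals of the form TAGNAAC mark the core of the X box, letters chosen after these promoters had been seen.
H2-Aa, chr17:34287824-34287933, minus strand: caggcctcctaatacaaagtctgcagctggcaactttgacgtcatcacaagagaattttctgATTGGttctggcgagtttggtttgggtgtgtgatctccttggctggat
H2-Eb1, chr17:34305757-34305866, plus strand: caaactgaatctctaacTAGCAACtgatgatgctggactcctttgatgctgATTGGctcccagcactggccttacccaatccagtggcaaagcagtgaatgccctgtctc
H2-DMb1, chr17:34153081-34153190, plus strand: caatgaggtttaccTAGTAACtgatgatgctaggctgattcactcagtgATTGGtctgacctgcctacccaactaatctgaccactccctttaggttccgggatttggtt

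In these promoters ATTGG started 48, 59 and 61 bases upstream in turn. The same letters, on the gene's strand and starting 40 to 65 bases upstream, were in 3.37% of the 32851 promoter windows of the table, and anywhere in the window on either strand they were in 37.4%. H2-Oa held ATTGG 43 bases and H2-Ob 57 bases upstream, whereas the 2 windows of H2-DMa held it 198 bases upstream or not upstream at all. TAGNAAC, found on either strand in 11.4% of windows, stood in H2-Eb1, H2-DMb1 and H2-Ob at 93, 96 and 89 bases upstream. These exact letters were not in the upstream part of the H2-Aa window, but its printed line holds tggcaac, which differs by a g in place of an a. Whether H2-Aa has an X box with other letters was not tested. A longer form of the X box, present in 0.289% of windows, was found in H2-DMb1 alone among these genes. The interferon γ activated site TTCNNNGAA, in 8.30% of windows, was found upstream in none of the members' windows. For the named genes only matches upstream of the gene start were kept. The shares of windows, apart from the 3.37%, also count matches in the bases after the start. H2-Ab1, Cd74 and Ciita were not in the table.

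**Figure D1:**
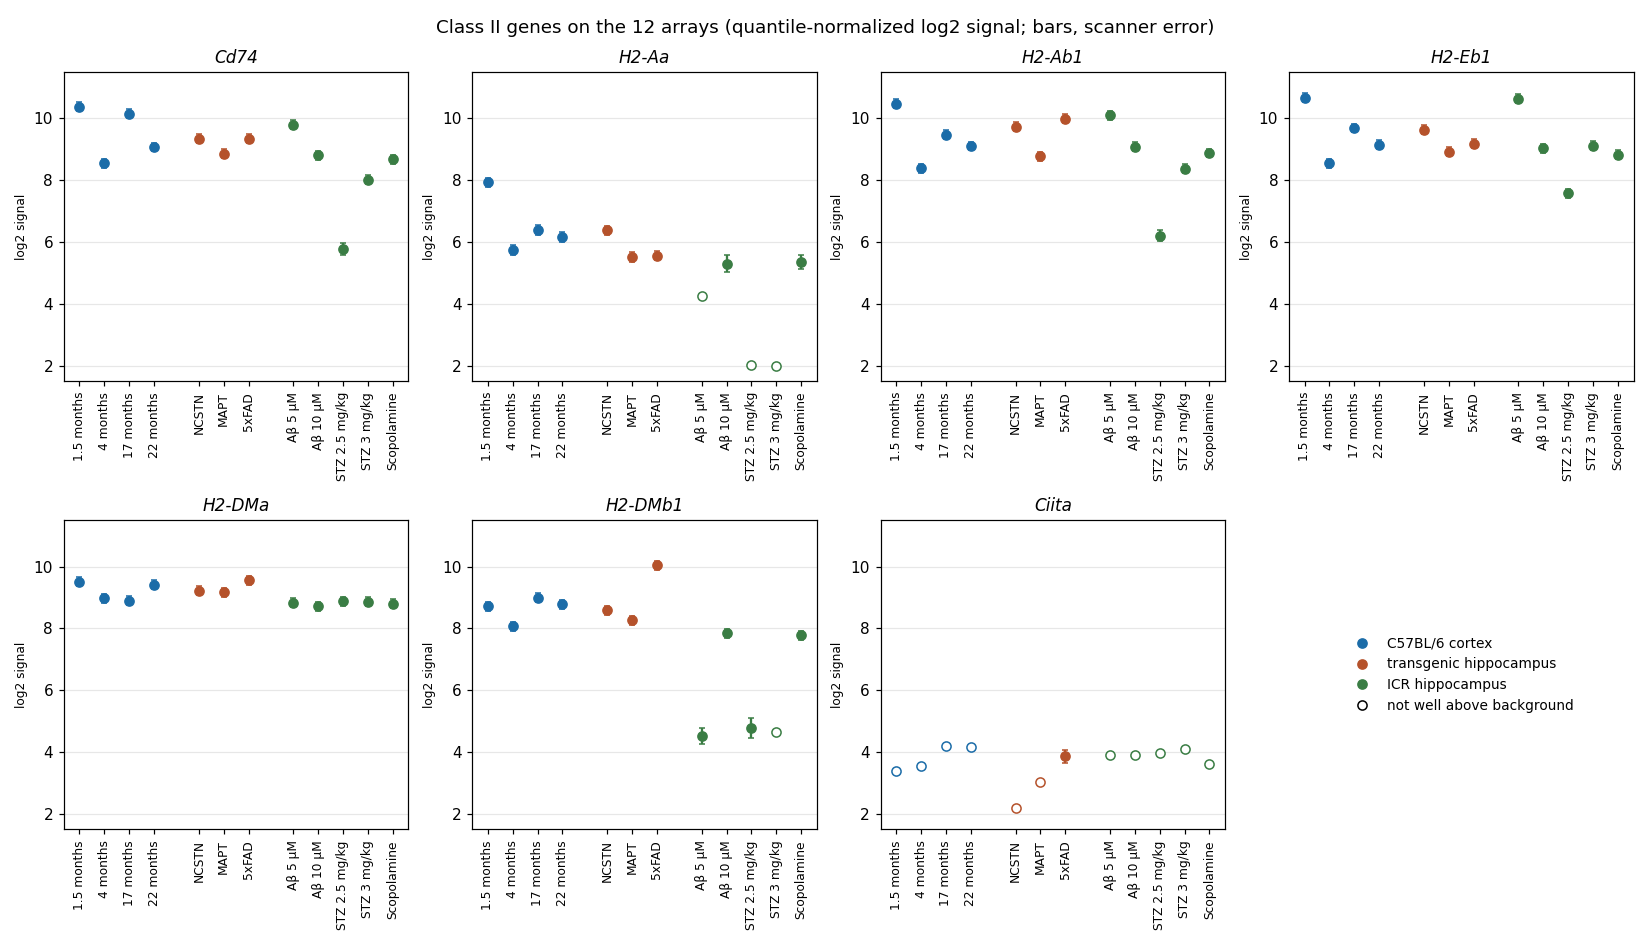
Quantile-normalized log2 signal of the 7 class II genes on each of the 12 arrays, with the scanner error as bars, and open circles where the spot was not well above background. Cd74, H2-Ab1 and H2-Eb1 were highest on the Aβ 5 µM array and lowest on the streptozotocin (STZ) 2.5 mg/kg array of the ICR group, while H2-DMa stayed between 8.71 and 8.88 there.

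In the aging cortex the presenting chains and Cd74 were highest in the youngest mice, not in the oldest. At 1.5 months 4 of the 7 genes were at least 2-fold above the mean of the other ages, against 2.18% of all genes. At 4 months the same 4 genes were at least 2-fold below the other ages, against 1.62% of all genes. The members' median log2 ratio was 1.12 at 1.5 months and -1.08 at 4 months, beside medians over all genes of -0.01 at both ages.

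H2-Aa, an α chain of the presenting molecule, had log2 signals of 7.93, 5.74, 6.38 and 6.15 at 1.5, 4, 17 and 22 months. Its β chain partner H2-Ab1 gave 10.47, 8.39, 9.46 and 9.10 at the same ages. H2-Eb1, the β chain gene whose α chain partner H2-Ea is annotated as a pseudogene, gave 10.66, 8.54, 9.69 and 9.15. All 3 chains kept one order, with 1.5 months first, 17 months next, then 22 months and 4 months last. Cd74, which escorts the new chains to the endosome, followed that order too, with 10.38, 8.54, 10.14 and 9.07. For Cd74 the 1.5 and 17 month arrays were apart by only 0.23, near the 0.204 that scanner error gives a difference between 2 arrays.

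The log2 ratio at 1.5 months was 1.84 ± 0.175 for H2-Aa, 1.54 ± 0.167 for H2-Eb1, 1.49 ± 0.167 for H2-Ab1 and 1.12 ± 0.167 for Cd74. Between the extreme ages, H2-Aa was 3.41-fold, H2-Eb1 2.86-fold, H2-Ab1 2.59-fold and Cd74 2.47-fold lower at 22 than at 1.5 months. These were 4 of the 7 members, and 2.95% of all genes were at least 2-fold lower in the same comparison. The values at 4 months rested in part on the youngest array. With the youngest array left out of the reference, Cd74 alone was still at least 2-fold lower at 4 months, at -1.07 on the log2 scale, and the chains were at -0.53 to -0.90.

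The chains of H2-DM, the peptide exchanger, did not keep the order of the presenting chains over age. H2-DMa gave 9.50, 8.97, 8.89 and 9.40 at 1.5, 4, 17 and 22 months, and H2-DMb1 gave 8.72, 8.06, 9.0 and 8.78. H2-DMb1 was lowest at 4 months, as the presenting chains were, and H2-DMa was highest at 1.5 months, but their spans were 1.91-fold and 1.53-fold. Neither reached a 2-fold ratio at any age, and between 22 and 1.5 months their log2 ratios were -0.10 and 0.06, inside the scanner error of 0.204. Ciita was not well above background at any age. Of the H2-O chains, H2-Oa lay between 6.14 and 6.33 and H2-Ob between 4.57 and 5.13. The 2 H2-Ob probes were up to 3.38 apart on the log2 scale over the 12 arrays, so their mean is uncertain.

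Markers of meningeal fibroblasts and of perivascular and meningeal macrophages were highest on the same cortical array as the presenting chains. The summed B cell (978.1) and T cell (1040) markers were highest there too. Those of monocytes and neutrophils (279.7) and of dendritic cells (314.1) were lowest there. The 5 monocyte and neutrophil markers went both ways, with 1 at least 2-fold higher and 2 lower, against 2.18% and 2.53% of all genes. S100a8 (5.03) and S100a9 (6.98) were lowest there, while Ccr2 (4.52) and Plac8 (5.22) were highest. Ccr2 was well above background at no other age. The summed signal of the 8 meningeal fibroblast markers was 15970 at 1.5 months, against 9392, 12350 and 8735 at 4, 17 and 22 months. The summed signal of 9 markers of perivascular and meningeal macrophages was 2389, 1697, 2125 and 1633 in the same order, with 6 or 7 of the markers well above background. Both lists were lowest at 22 months, not at 4 months as Cd74 and the chains were, and 2 of the 8 fibroblast markers and 0 of the 9 macrophage markers were at least 2-fold higher at 1.5 months. The 10 microglia markers summed to 28460, 25450, 27470 and 28340 at 1.5, 4, 17 and 22 months. They were lowest at 4 months, as Cd74 and the chains were, and nearly equal at 1.5 and 22 months, all over a narrower range. The 8 activated microglia markers summed to 9047, 9256, 10430 and 10980 in the same order. These were lowest at 1.5 months, where the chains were highest. The choroid plexus markers summed to 601.6, 446.3 and 606.9 at 1.5, 4 and 22 months and to 50660 at 17 months, where the presenting chains were not highest. The part of any of these cells in the class II values was not tested. In pooled tissue, fewer cells of a type and less RNA per cell cannot be told apart.

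In the transgenic hippocampus, some accessory genes of the pathway but none of the presenting chains were at least 2-fold higher on the 5xFAD array. H2-DMb1 and Ciita were at least 2-fold higher there than on the mean of the NCSTN and MAPT arrays, 2 of 7 members against 5.81% of all genes. The members' median log2 ratio was 0.36, and that over all genes was -0.04.

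Cd74 had log2 signals of 9.33 (NCSTN), 8.86 (MAPT) and 9.34 (5xFAD). H2-Ab1 gave 9.73, 8.77 and 9.98 in the same order, while H2-Eb1 gave 9.63, 8.92 and 9.18. H2-Aa gave 6.38, 5.52 and 5.56. The MAPT array was lowest for all 4, for H2-Aa by less than the scanner error, and the 5xFAD array was highest by more than the scanner error only for H2-Ab1, by 0.25 over NCSTN. Relative to both other models, the 5xFAD log2 ratios were 0.24 ± 0.177 for Cd74, 0.73 ± 0.177 for H2-Ab1, -0.09 ± 0.177 for H2-Eb1 and -0.39 ± 0.189 for H2-Aa. The presenting chains therefore lay on both sides of 0.

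H2-DMb1 gave 8.59, 8.27 and 10.03 on the NCSTN, MAPT and 5xFAD arrays, so the 5xFAD signal was 2.72-fold and 3.41-fold above the other two. Its partner chain H2-DMa gave 9.22, 9.16 and 9.55, a log2 ratio of 0.36 ± 0.177. The chains of one heterodimer thus differed in size of change on the same array. H2-Oa, a chain of the H2-DM inhibitor H2-O, gave 5.95, 5.78 and 8.37, which put 5xFAD 5.66-fold above the mean of the other two, the largest ratio of the class II genes. Its partner H2-Ob was 3.94-fold higher as the mean of 2 probes, of which one was not well above background on the MAPT array. The H2-Ob probe measured on all 3 arrays gave 5.37, 5.64 and 6.85 on the NCSTN, MAPT and 5xFAD arrays.

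Ciita was well above background on the 5xFAD array alone among the 12 arrays, with a log2 signal of 3.87 ± 0.21. Set against the lowest signal that counted as well above background on each array, it was at least 1.2-fold above NCSTN and at least 1.57-fold above MAPT. Its measured values of 2.19 and 3.03 on those arrays have no order of their own. The ratio behind its count therefore rested on spots at background, as did the single member at least 2-fold lower on the NCSTN array, which was Ciita (against 2.25% of all genes). On the MAPT array 2 members, H2-Ab1 and H2-DMb1, were at least 2-fold lower, at -1.09 and -1.05 on the log2 scale, against 2.85% of all genes. With 5xFAD left out of the reference neither was.

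Between the NCSTN and MAPT arrays alone, the presenting chains and Cd74 were all higher with NCSTN. The log2 ratio was 0.97 ± 0.204 for H2-Ab1, 0.86 ± 0.228 for H2-Aa, 0.71 ± 0.204 for H2-Eb1 and 0.47 ± 0.204 for Cd74. H2-DMa was at 0.06 ± 0.204. None reached 2-fold.

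**Figure D2:**
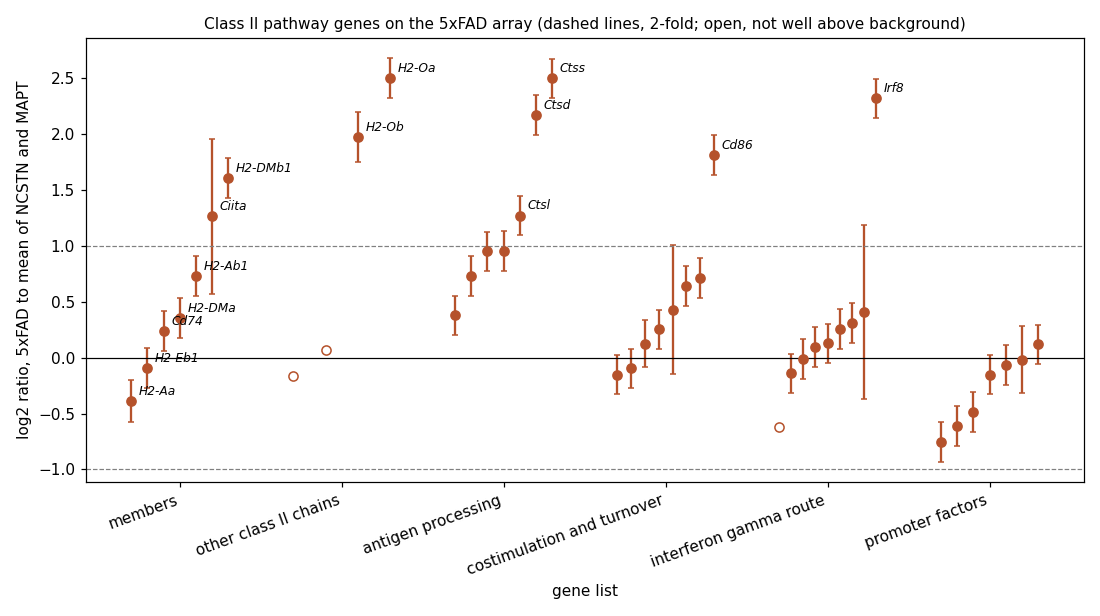
Log2 ratio of the 5xFAD array to the mean of the NCSTN and MAPT arrays for the class II genes and 5 other lists of the pathway, with scanner error as bars. Ctss, H2-Oa, Irf8, Ctsd, H2-Ob, Cd86, H2-DMb1, Ctsl and Ciita lie above the dashed 2-fold line, and H2-Eb1 and H2-Aa lie below 0.

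Cathepsin genes were the most numerous genes of the wider pathway that were higher on the 5xFAD array. Of 7 genes for antigen processing, 3 were at least 2-fold higher, against 5.81% of all genes, and none lower, against 4.51%. The list median was 0.96 on the log2 scale. Ctss, the cathepsin that trims the invariant chain, went from log2 signals of 13.19 and 13.16 on the NCSTN and MAPT arrays to 15.68, Ctsd from 12.25 and 12.14 to 14.37, and Ctsl from 12.98 and 12.91 to 14.22. In the list of the interferon γ route to Ciita 1 of 9 genes was at least 2-fold higher, the myeloid factor Irf8, at 8.94, 8.97 and 11.28. Of 8 measured genes for costimulation and class II turnover 1 was, Cd86, a ligand of CD28, at 6.91, 6.82 and 8.67. In lists this short 1 gene is little beyond the 5.81% of all genes, and neither count is read as a result about its list. None of the 7 promoter factors reached 2-fold in either direction, with ratios from -0.75 to 0.12.

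Summed microglial markers were also higher on the 5xFAD array. The 10 microglia markers summed to 62660 on the 5xFAD array against 28100 (NCSTN) and 27980 (MAPT), and the 8 activated microglia markers to 78220 against 9939 and 9942. All 8 were well above background on the 5xFAD array. At least 2-fold higher were 5 of the 10 and 5 of the 8, against 5.81% of all genes. Siglech of the first list went the other way, at 10.70 against 12.77 (NCSTN) and 12.89 (MAPT). In the second list Spp1 and Gpnmb did not exceed their NCSTN values. The 9 perivascular and meningeal macrophage markers moved less, from 1313 and 1122 to 1483. The part of microglia or of other cells in the H2-DMb1, H2-Oa and H2-Ob values was not tested.

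**Figure D3:**
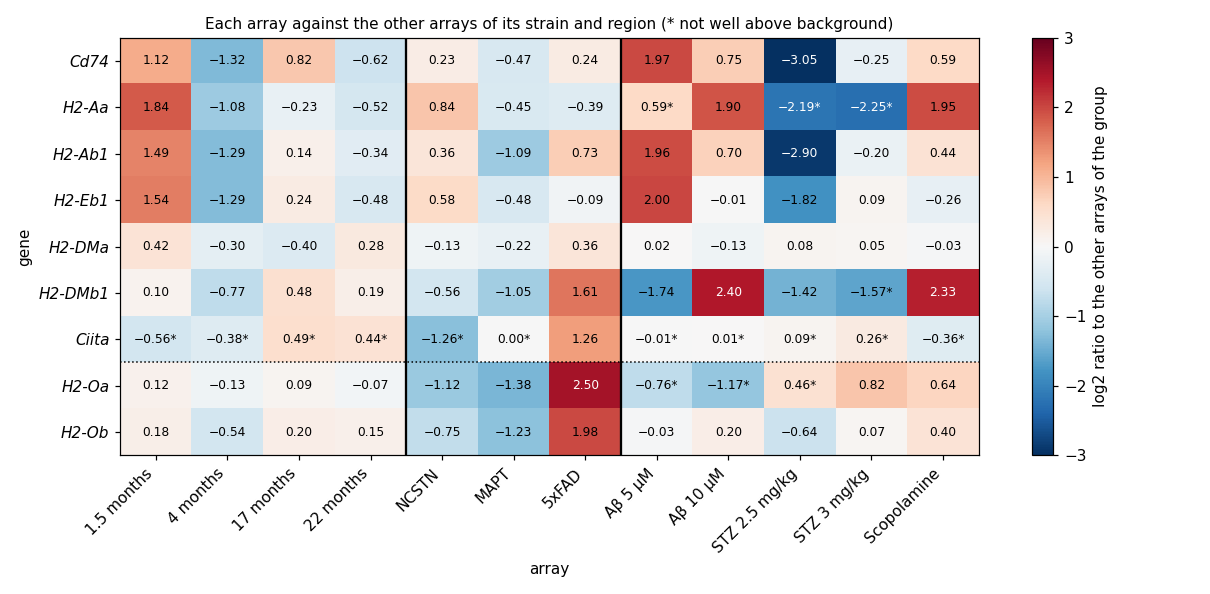
Log2 ratio of each array to the average of the remaining arrays of its strain and region, for the 7 class II genes and the chains of H2-O, with an asterisk where the spot was not well above background. The streptozotocin 2.5 mg/kg array was -3.05 for Cd74 and 0.08 for H2-DMa, and the 5xFAD array was 0.24 for Cd74 and 2.5 for H2-Oa.

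The widest class II differences lay among the injected ICR mice, and they split the members into 3 patterns. Cd74, H2-Ab1 and H2-Eb1 ranged from highest after Aβ at 5 µM to lowest after streptozotocin at 2.5 mg/kg. H2-DMb1 was high on 2 arrays and close to background on the other 3, a division that H2-Aa shared. H2-DMa did not vary.

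Cd74 gave log2 signals of 9.79 and 8.81 after Aβ at 5 and 10 µM, 5.77 and 8.01 after streptozotocin at 2.5 and 3 mg/kg, and 8.68 after scopolamine. H2-Ab1 gave 10.09, 9.08, 6.21, 8.37 and 8.88 in the same order. H2-Eb1 gave 10.63, 9.03, 7.57, 9.11 and 8.83. The 5 µM array stood highest for all 3 genes and the 2.5 mg/kg array lowest, with the other 3 arrays between. The middle arrays were close together for H2-Eb1, where 10 µM Aβ and 3 mg/kg streptozotocin were 0.08 apart, and for Cd74, where 10 µM Aβ and scopolamine were 0.13 apart.

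After Aβ at 5 µM, 3 members were at least 2-fold higher than the mean of the other ICR arrays, against 3.94% of all genes, and 1 was at least 2-fold lower, against 1.68%. The log2 ratios were 2.0 ± 0.162 for H2-Eb1, 1.97 ± 0.165 for Cd74 and 1.96 ± 0.164 for H2-Ab1, and the member that was lower was H2-DMb1 at -1.74 ± 0.289. After streptozotocin at 2.5 mg/kg, 5 of the 7 members were at least 2-fold lower, against 4.76% of all genes, with -3.05 ± 0.209 for Cd74, -2.90 ± 0.193 for H2-Ab1 and -1.82 ± 0.169 for H2-Eb1. The other 2 were H2-Aa, not well above background there, and the dim H2-DMb1, and both lost the call in the deposited matrix (-0.35 and -0.55) and after normexp background correction (-0.32 and -0.70), which left 3 members. The distance between these arrays was 16.2-fold for Cd74, 14.8-fold for H2-Ab1 and 8.32-fold for H2-Eb1. These 3 genes were thus at opposite ends on 2 arrays of mice injected by the same route.

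The doses of one agent did not give like values. Cd74 was 4.71-fold, H2-Ab1 4.47-fold and H2-Eb1 2.90-fold lower at 2.5 than at 3 mg/kg streptozotocin, so the lower dose had the lower signal. For Aβ too the lower dose stood apart, with Cd74, H2-Ab1 and H2-Eb1 higher at 5 than at 10 µM. With 1 pool per dose, dose and pool cannot be told apart.

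H2-DMb1 gave log2 signals of 4.52 and 7.84 after Aβ at 5 and 10 µM, 4.78 and 4.66 after streptozotocin at 2.5 and 3 mg/kg, and 7.78 after scopolamine. The spot at 3 mg/kg was not well above background. The arrays fell into 2 levels, and within a level they were no more than 0.26 apart. The higher level was 7.99- to 9.96-fold above the 5 µM and 2.5 mg/kg arrays, and at least 8.70-fold above the 3 mg/kg array. H2-DMa, the chain that pairs with it, gave 8.83, 8.71, 8.88, 8.86 and 8.79, a span of 1.13-fold.

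H2-Aa was well above background on the same 2 arrays that were high in H2-DMb1, at 5.30 (Aβ at 10 µM) and 5.35 (scopolamine), and not well above background on the other 3. Set against its own dim signal, the higher bound on that array, the scopolamine array was at least 2.12-fold above the 5 µM array. Set against the lowest signals well above background, it was at least 1.71-fold above the 2.5 mg/kg array and at least 1.72-fold above the 3 mg/kg array. H2-Aa was thus not well above background on the very array where its partner chain H2-Ab1 was highest. H2-Aa and H2-DMb1 made up the 2 members at least 2-fold higher after Aβ at 10 µM (against 3.85% of all genes) and after scopolamine (against 3.20%), and the 2 at least 2-fold lower after streptozotocin at 3 mg/kg (against 2.83%). In the authors' deposited matrix and after normexp background correction H2-Aa reached 2-fold on none of these arrays, whereas H2-DMb1 remained at least 2-fold higher on both, at 1.39 and 1.21 after Aβ at 10 µM and 1.24 and 1.18 after scopolamine on the log2 scale. On the low side H2-DMb1 lost its 2-fold call in both settings at 3 mg/kg (-0.94 and -0.80) and, after Aβ at 5 µM, kept it in the matrix (-1.14) but not after normexp (-0.89). Whether the alleles in a pool set the signal of these 2 probes was not tested.

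Ciita was not well above background on any ICR array. H2-Oa was well above background after streptozotocin at 3 mg/kg (4.67) and scopolamine (4.52) alone, and H2-Ob lay between 3.50 and 4.33. H2-Eb2, a further β chain, had its only measured signal of the 12 arrays after streptozotocin at 3 mg/kg (5.46), and H2-DMb2, the copy of H2-DMb1 beside it, was dim on all 12. No probe matched H2-Ea.

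The pathway lists showed little beside these differences. On the 2.5 mg/kg array 0 of 7 promoter factors, 0 of 9 genes of the interferon γ route and 0 of 7 antigen processing genes reached 2-fold in either direction, with list medians of 0.11, -0.06 and -0.12 on the log2 scale. Cd40, a costimulatory receptor, was the 1 gene of 8 lower on that array, against 4.76% of all genes. Its spot there was not well above background. After Aβ at 5 µM the promoter factors and antigen processing genes again gave 0 calls, and the 1 gene called of the interferon γ route, Ifng, was not well above background on any of the 12 arrays. Of the costimulation genes 1, the CD28 ligand Cd80, was higher, beside 3.94% of all genes, at 6.69 against 4.84 after 10 µM. After Aβ at 10 µM Irf1, an interferon-induced activator of Ciita, was at 8.19 against 5.75 to 6.29 on the other ICR arrays, a log2 ratio of 2.23 ± 0.391, while Ciita stayed at background.

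**Figure D4:**
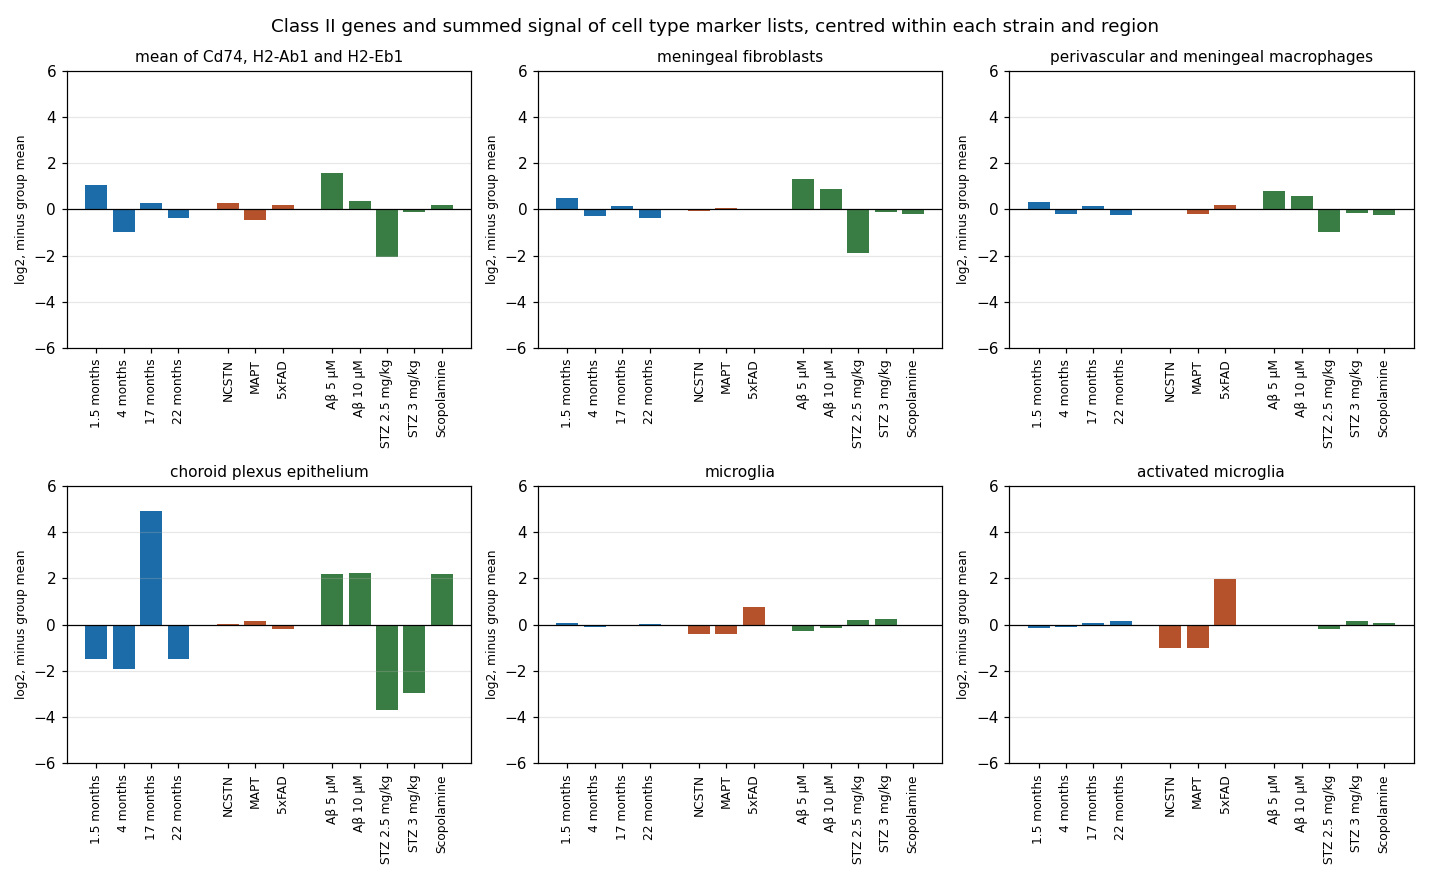
Mean log2 signal of Cd74, H2-Ab1 and H2-Eb1, and the log2 of the summed signal of 5 cell type marker lists, each minus its mean over the arrays of the same strain and region. In the ICR group the meningeal fibroblast, macrophage, choroid plexus and activated microglia lists were lowest on the streptozotocin (STZ) 2.5 mg/kg array, as the class II genes were. The microglia list was not.

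Markers of meninges and of perivascular macrophages had their highest and lowest arrays in common with Cd74, H2-Ab1 and H2-Eb1 in the ICR group. The 8 meningeal fibroblast markers summed to 49920 and 36820 after Aβ at 5 and 10 µM, 5471 and 18830 after streptozotocin at 2.5 and 3 mg/kg, and 17660 after scopolamine. The 9 perivascular and meningeal macrophage markers summed to 2440, 2074, 705.7, 1239 and 1179 in that order, with 6 to 8 of them well above background. All 8 fibroblast markers and 5 of the 9 macrophage markers were at least 2-fold lower at 2.5 mg/kg. The 7 astrocyte markers had the same highest (57850) and lowest (51250) arrays, over a narrower range, with 51390 after Aβ at 10 µM nearly as low. The monocyte and neutrophil list and the endothelial list shared only the highest array. The 5 monocyte and neutrophil markers summed to 688.3 after Aβ at 5 µM and to 240.2 to 544.3 on the other 4 arrays, and the 7 endothelial markers to 25290 against 15320 to 22510.

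The 8 choroid plexus markers summed to 189100, 199300, 3294, 5455 and 190700, low on both streptozotocin arrays and level on the other 3, an order that Cd74 and the chains did not follow at 3 mg/kg. The 10 microglia markers did not fall with the class II genes, since they summed to 24100 on the 5 µM array and 33250 on the 2.5 mg/kg array. The 8 activated microglia markers summed to 8895 and 8618 after Aβ, 7974 and 10030 after streptozotocin and 9607 after scopolamine. That list was lowest at 2.5 mg/kg, as the class II genes were, but highest at 3 mg/kg, over a narrow range. Of 8 dendritic cell markers 5 were well above background on both Aβ arrays, 2 at 2.5 mg/kg and 4 on the remaining 2, and they summed to 289.3, 394.7, 219.5, 256.9 and 219.6 in the same order. Clec10a, a lectin of dendritic cells and macrophages, gave 7.06, 7.69, 4.97, 6.66 and 6.29 on the log2 scale and was not well above background at 2.5 mg/kg. Clec9a and Xcr1, which mark one dendritic type, and the B cell genes Ms4a1 and Pax5 were not well above background on any of the 12 arrays, while 1 or 2 of the 7 B cell markers were on each ICR array. The part of meningeal, macrophage, microglial, dendritic, monocyte, endothelial, astrocyte or choroid plexus RNA in the class II values was not tested.

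The genes whose pattern was most like the members' mean, over the 12 arrays centred within strain and region, were sought among 689 genes well above background on every array with a standard deviation of at least 0.5. The prostacyclin synthase gene Ptgis was first, with r = 0.957, followed by Arhgef5 (0.950) and Pcolce (0.934), an enhancer of collagen processing. Tuba1c (0.915), Perp (0.914), the meningeal sulfate transporter Slc13a4 (0.905), Cfap52 (0.903), the choroid plexus potassium channel Kcnj13 (0.900), Wdr86 (0.900) and Csrp2 (0.900) completed the first 10. Kcnj13 is also in the choroid plexus list. Without the streptozotocin 2.5 mg/kg array the 10 correlations lay between 0.786 and 0.919. These values describe 12 arrays that share their normalization, and the widest array weighs most in them.

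Among the members themselves, H2-Ab1 followed the mean of the other 6 most closely over the 12 centred arrays, with r = 0.888, then Cd74 (0.869), H2-Aa (0.761) and H2-Eb1 (0.662). H2-DMb1 (0.393), H2-DMa (0.151) and Ciita (-0.130) did so least. H2-Aa departed from H2-Ab1 and H2-Eb1 on the Aβ 5 µM array, where it was not well above background.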

How the data were processed

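RNA pooled from 3 mice per model was hybridised by the authors to 12 one-colour Agilent 44K arrays, 1 per model. The deposited scanner files hold the processed signal intensity of each spot, which the scanner software had background-subtracted. The deposited matrix, the authors' normalized intensity, served as an alternative. Outlier spots (110 to 234 per array) were left out, spots of one probe were averaged as log2, and all 12 arrays were quantile normalized with limma 3.58.1 in R 4.3.3. Per array, 63.5% to 75.8% of 39429 probes were well above background. The small number of arrays sets the precision. Of these probes 27508 were named through RefSeq accessions, and probes of a gene were averaged. A gene was counted as changed at 2-fold, with no filter and no test. Spots of one probe on one array had a median SD of 0.0536 on the log2 scale. "At least" folds use the lowest signal well above background on an array. The steps were tested on simulated data. All members, other class II chains, the largest calls of each pathway list and the 10 genes most like the members were named. The members and lists were chosen with earlier results of these data known.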

Additional observations from a re-analysis of the deposited data

How the results depend on the processing

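Of the member ratios at least 2-fold, 32 in number, all 310 alternative values kept their sign and 280 stayed at least 2-fold. Counts of members that moved by more than 1.5 times were as follows. At a 3-fold threshold the counts were 1 at 1.5 months, 0 at 4 months, 1 for 22 against 1.5 months, 0 on the NCSTN and 0 on the MAPT array, 1 on the 5xFAD array and 1 after streptozotocin at 3 mg/kg. At 1.5-fold, 4 members were higher after Aβ at 10 µM. After normexp on the median foreground (offset 50), which compresses dim spots, the counts were 0 on the NCSTN and 0 on the MAPT array, 1 on the 5xFAD array, 0 lower after Aβ at 5 µM, 1 higher after Aβ at 10 µM, 3 and 0 lower after streptozotocin at 2.5 and 3 mg/kg, and 1 higher after scopolamine, and the count at 4 months fell to 3. In the deposited matrix they were 1 after Aβ at 10 µM, 3 and 0 after streptozotocin at 2.5 and 3 mg/kg, and 1 after scopolamine. Scaling to the 75th percentile left 1 on the MAPT array. Leaving out reference arrays one by one, the count ranged from 1 (without the 1.5 month array) to 4 at 4 months, from 0 (without 5xFAD) to 2 (without MAPT) on the NCSTN array, from 0 (without 5xFAD) to 2 on the MAPT array, and from 2 to 4 (without Aβ at 5 µM) after Aβ at 10 µM. The other ranges were 3 to 4 at 1.5 months, 2 to 2 on the 5xFAD array, 3 to 4 higher and 1 to 1 lower after Aβ at 5 µM, 4 to 5 and 2 to 3 after streptozotocin at 2.5 and 3 mg/kg, and 2 to 3 after scopolamine. Of the 10 genes most like the members, 6 remained among the first 10 without the 5xFAD array and 6 without the streptozotocin 2.5 mg/kg array, the latter chosen after seeing the data. Dim signals limit H2-Aa on the ICR arrays and Ciita throughout. No paired analysis was possible because each model had 1 array.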

Other observations

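The 4 red blood cell markers, a sign of blood left in the tissue, summed to between 65260 and 127700 in cortex, 54810 and 87190 in the transgenic hippocampus, and 67710 and 105700 in the ICR group. Of 7 T cell markers 3 to 5 were well above background on any array, and they summed to 852.4 to 1040 in cortex, highest at 1.5 months, to 862 to 1325 in the transgenic hippocampus, highest on the MAPT array, and to 732.5 to 889 in the ICR group.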
